A study of Mus musculus with 2 samples.

Results

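Enah, Evl, Vasp, Palld, Pdlim1, Pard3 and Tubb2a are genes of the cytoskeleton and of cell polarity, and were found by symbol as 7 of the 32285 gene rows of a single-cell RNA matrix from mouse fetal lung. They were selected on the contrast of litters of dexamethasone-treated mothers with control litters in group 2 innate lymphoid cells (ILC2s), so their values in that contrast are a description. All 7 passed the filter on low values in each of the 5 cell classes compared, and each was counted in every litter of these classes.

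The mothers were wild-type mice, 9 weeks old, whose drinking water held from gestation day 12 either phosphate-buffered saline (PBS) or the glucocorticoid drug dexamethasone (DEX) at 1.3 µg/ml. Fetal lungs were taken on gestation day 18 and pooled by litter, as pools of 8 fetuses (DEX-1), 9 fetuses (DEX-2), 5 fetuses (PBS-1) and 8 fetuses (PBS-2), and no fetus can be told from its littermates. Live CD45+ lineage- ST2+ cells were sorted, every litter received a different hashtag antibody, and all litters were read in the same 10x Genomics 5′ library. Littermates share a mother, so litters were taken as the replicates, 2 for DEX and 2 for PBS. A figure legend of the study names fewer dams per group than the labels and hashtags do, and if tagged pools of a group shared a dam, every SD and SE here would measure only the spread between these pools.

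ENAH, EVL and VASP are the mammalian Ena/VASP proteins, which bind growing ends of actin filaments, recruit profilin and delay capping. Palladin (Palld) bundles actin and is abundant in fibroblasts and smooth muscle. PDLIM1, a PDZ and LIM domain adaptor, binds alpha-actinin on stress fibres. PARD3 is the scaffold of the PAR polarity complex, best known from the tight junctions of epithelium. Tubb2a encodes a beta-tubulin of microtubules. In lymphocytes such proteins shape migration and contact with other cells, and glucocorticoids act through a nuclear receptor that binds DNA.

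In GENCODE M21 (GRCm38), Enah lies on chromosome 1 from 181896384 to 182019990 on the minus strand, Palld on chromosome 8 from 61511433 to 61902690 on the minus strand, and Pdlim1 on chromosome 19 from 40221173 to 40271842 on the minus strand. Vasp lies on chromosome 7 from 19256929 to 19271817 (minus), Evl on chromosome 12 from 108554720 to 108688516 (plus), Pard3 on chromosome 8 from 127063893 to 127612286 (plus) and Tubb2a on chromosome 13 from 34074274 to 34078007 (minus). The spans differ widely, from 3.7 kb for Tubb2a to 548.4 kb for Pard3. Exons of any transcript cover 2.20% of Evl, 2.63% of Palld, 2.65% of Pard3, 17.4% of Enah and 43.1% of Tubb2a. Whether UMIs of introns were counted is not given in the sources used here, so levels were compared between cells and never between genes.

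The 250 bases before the RefSeq transcription starts (GRCm38.p6) of Palld, Enah and Pdlim1 are shown because these 3 genes differed most between DEX and PBS ILC2s. They read 5′ to 3′ on the strand of the gene, in lower case, with any glucocorticoid receptor half-site (AGAACA or TGTTCT, both strands) in capitals. Palld has 3 RefSeq starts, numbered from the most upstream, and the counts do not tell them apart.
Palld, start 1: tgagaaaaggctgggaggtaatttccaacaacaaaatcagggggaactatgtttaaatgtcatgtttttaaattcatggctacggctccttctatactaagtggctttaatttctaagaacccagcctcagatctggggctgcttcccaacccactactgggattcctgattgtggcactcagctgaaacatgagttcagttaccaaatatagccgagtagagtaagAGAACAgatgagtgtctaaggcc
Palld, start 2: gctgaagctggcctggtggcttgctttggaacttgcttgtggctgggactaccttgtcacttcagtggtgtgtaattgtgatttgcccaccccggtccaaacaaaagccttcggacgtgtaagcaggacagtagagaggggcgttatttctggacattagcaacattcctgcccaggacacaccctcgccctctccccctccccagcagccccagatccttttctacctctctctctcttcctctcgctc
Palld, start 3: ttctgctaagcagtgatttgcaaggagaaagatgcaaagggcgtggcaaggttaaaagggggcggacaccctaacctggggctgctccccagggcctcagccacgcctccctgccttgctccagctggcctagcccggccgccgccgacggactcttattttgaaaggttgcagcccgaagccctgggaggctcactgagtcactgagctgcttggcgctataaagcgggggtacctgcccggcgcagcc
Enah: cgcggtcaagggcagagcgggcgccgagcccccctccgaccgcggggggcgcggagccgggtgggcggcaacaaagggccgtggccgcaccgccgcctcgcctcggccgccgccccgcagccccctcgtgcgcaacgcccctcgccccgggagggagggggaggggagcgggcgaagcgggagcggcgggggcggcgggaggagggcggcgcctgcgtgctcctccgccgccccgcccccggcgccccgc
Pdlim1: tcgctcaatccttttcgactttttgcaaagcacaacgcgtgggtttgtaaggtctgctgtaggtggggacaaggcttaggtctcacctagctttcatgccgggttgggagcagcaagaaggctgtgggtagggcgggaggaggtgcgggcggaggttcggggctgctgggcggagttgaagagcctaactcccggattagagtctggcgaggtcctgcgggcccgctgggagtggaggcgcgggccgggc
The windows are chr8:61902708-61902957, chr8:61760090-61760339 and chr8:61591140-61591389 for the starts of Palld, chr1:182019981-182020230 for Enah and chr19:40271617-40271866 for Pdlim1. Of the 11 windows of the 7 genes, 1 held a half-site, 23 bases before the first Palld start. Among 32851 windows of this length in the RefSeq table, 16.1% held one. The CArG box, the motif of serum response factor at many actin genes, was in 0 of the 11 windows and in 1.47% of the 32851. A match is a short run of letters in a window, and no binding was measured here.

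After hashtag calling and filtering, 7268 cells with 1 litter tag remained, between 1737 and 1890 per litter. Clustering left out the 7 genes and named 2761 cells basophil or mast-like, 2052 ILC2-like, 452 epithelial-like, 199 B-like, 284 endothelial-like and 199 mesenchymal-like, while 1321 stayed unnamed. ILC2 markers thus defined a minority of the sorted cells. Of the ILC2-like clusters, 1 of 642 cells was led by T cell receptor constant genes (Tcrg-C4, Trbc1) with Tcf7. Leading genes of the basophil or mast-like clusters were Mrgprb2 and Mcpt4 in the first, Tpsab1 in another, Tnfrsf23 in another, and Acod1 and Mcpt8 in the last, which was basophil-like. All litters were loaded together and share free RNA: of the surfactant gene Sftpc, at least 1 UMI was in 71.2 to 85.6% of cells of the classes that are not epithelial-like. Levels are CPM, that is counts-per-million of all gene UMIs after TMM scaling.

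In ILC2-like cells of DEX litters, Enah was lower and Palld and Pdlim1 were higher than in PBS litters. The class sums held between 3792944 and 5190869 UMIs per litter over 448 to 570 cells. Enah measured 35.6 (DEX-1), 33.5 (DEX-2), 88.0 (PBS-1) and 80.1 CPM (PBS-2) (168, 125, 348 and 413 UMIs). Both DEX litters lay below both PBS litters, at 34.6 ± 1.52 against 84.0 ± 5.62 CPM (mean ± SD, n = 2 each), a 2.43-fold difference. The fitted log2 fold change was -1.27 ± 0.11 (SE).

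Palld measured 21.9 (DEX-1), 25.7 (DEX-2), 7.08 (PBS-1) and 5.43 CPM (PBS-2). These are 103, 96, 28 and 28 UMIs, the fewest in PBS litters of any of the 7 genes here. Both DEX litters lay over 3-fold above both PBS litters, at a log2 fold change of 1.93 ± 0.21. Pdlim1 measured 203.6 (DEX-1), 214.0 (DEX-2), 121.1 (PBS-1) and 123.3 CPM (PBS-2). Litters of the same group lay close together, and the log2 fold change was 0.77 ± 0.08.

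The other members of the Ena/VASP family differed from PBS by less than Enah did. Evl was 77.6 and 77.2 CPM in DEX-1 and DEX-2 and 87.0 and 91.3 CPM in PBS-1 and PBS-2, a log2 fold change of -0.21 ± 0.09. Vasp was 159.5 and 155.6 CPM in the DEX litters and 179.3 and 185.0 CPM in the PBS litters, also -0.21 ± 0.08. Neither was called, while Enah was. The difference between Enah and its relatives was not tested.

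Pard3 measured 67.9 (DEX-1), 79.0 (DEX-2), 100.4 (PBS-1) and 79.5 CPM (PBS-2), so that DEX-2 and PBS-2 were nearly equal. Its log2 fold change was -0.29 ± 0.12, and it was not called, but without PBS-2 it was, at -0.46 ± 0.12. Tubb2a measured 18.5 (DEX-1), 21.4 (DEX-2), 12.4 (PBS-1) and 11.6 CPM (PBS-2), a log2 fold change of 0.73 ± 0.18 that was not called. Left unfiltered, the test called Tubb2a, at 0.73 ± 0.20. Tubb2b, a near-identical neighbour of Tubb2a on chromosome 13 (34126748 to 34130466) with which it can share reads, had only 4 to 18 UMIs per litter in these cells.

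**Figure D1:**
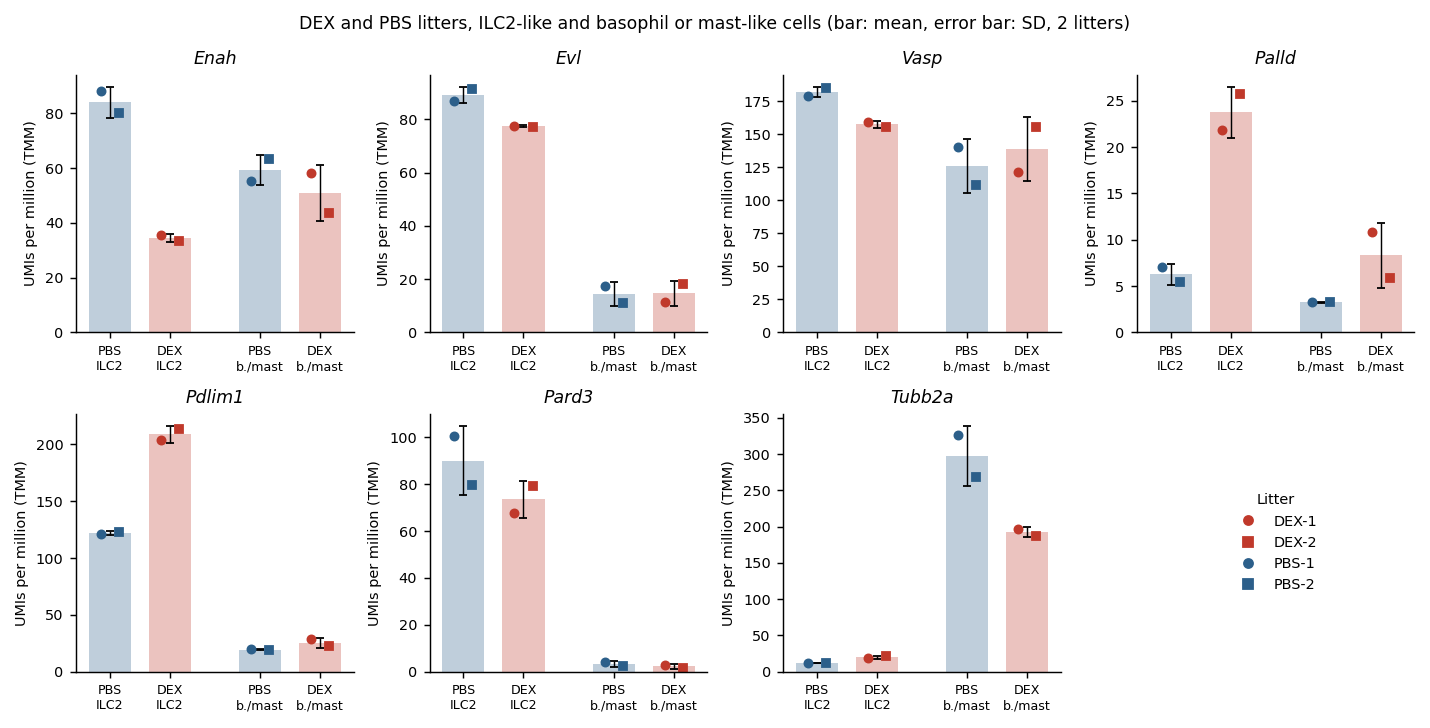
CPM after TMM scaling (y axis) of the 7 genes in ILC2-like and in basophil or mast-like cells, with 1 point per litter, bars at the mean and error bars of 1 SD over 2 litters. In ILC2-like cells Enah stands at 34.6 CPM in DEX against 84.0 in PBS and Palld at 23.8 against 6.26, while Tubb2a is low in ILC2-like and high in basophil or mast-like cells.

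At an edgeR adjusted p under 0.05, 3 of the 7 genes were called (Palld and Pdlim1 higher, Enah lower), against 2.28% of the 10643 genes tested (1.03% higher in DEX and 1.25% lower). The DEX and PBS litters of all 7 did not overlap, as for 42.3% of tested genes. Without PBS-2, 440 genes were called in place of 243. The 7 genes were selected on this contrast, so neither of their counts is read further. Fewer cells with a transcript and less RNA per cell cannot be told apart in the sums. The share of cells with a UMI comes from the same UMIs of the same cells. It largely follows the sums at these depths, so it does not separate the 2 either and is given as a description. After thinning to 2000 UMIs per cell, an Enah UMI was in 8.27 and 6.73% of ILC2-like cells of DEX-1 and DEX-2 and in 17.3 and 17.6% of those of PBS-1 and PBS-2. For Palld the thinned shares were 6.25 and 4.93% in DEX litters and 1.04 and 0.71% in PBS litters, and for Pdlim1 32.7 and 30.0% against 17.9 and 21.7%. Without thinning they were 20.9, 20.3, 39.3 and 40.0% for Enah, 11.9, 12.7, 4.30 and 4.21% for Palld, and 70.0, 68.1, 52.1 and 54.6% for Pdlim1, in the same order of litters. B-like cells, which hold little of Enah and Palld, gave an Enah UMI in 0.503% and a Palld UMI in 1.01% of cells without thinning, at a median of 3528 UMIs against 7236 in ILC2-like cells.

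The summed markers of mesenchymal, endothelial and epithelial cells did not overlap between litter groups in the ILC2-like sums. The 8 mesenchymal markers summed to 21.1 and 22.1 CPM in DEX litters and to 15.5 and 12.5 CPM in PBS litters, the 8 endothelial markers to 54.9 and 59.1 against 43.4 and 46.8 CPM, and the 10 epithelial markers to 309 and 303 against 394 and 352 CPM. None of these markers was without a UMI, and 1 of the 7 epithelial markers tested was called, lower in DEX. The epithelial marker Epcam was also a leading gene of an ILC2 subcluster led by Ctla2a. The 7 markers of smooth muscle or pericytes, another source of palladin, summed to 5.75 and 2.64 CPM in DEX litters and to 6.10 and 4.24 CPM in PBS litters, which overlapped, and Cnn1 among them had no UMI. The 9 basophil or mast markers summed to 162 and 233 against 190 and 130 CPM, and the 7 T cell markers to 628 and 550 against 597 and 587 CPM. The 12 ILC2 markers summed to 4254 and 4542 CPM in DEX litters and to 4399 and 4739 CPM in PBS litters, and 1 was called, lower in DEX. Mesenchymal-like cells are the richest class in Palld, and these marker levels are 0.254 to 0.431% of those in mesenchymal-like cells. The same share of the Palld of mesenchymal-like cells comes to 0.694 to 1.06 CPM, and 5.43 to 25.7 CPM were measured. This scaling takes Palld to be carried over as the 8 markers are. It leaves out other sources, such as an unnamed cluster with 483 Palld UMIs. When the smallest ILC2 subcluster (20 cells, led by Cbr2 and Wfdc2, with Krt19 and Tcf21) was left out, the log2 fold changes were 1.96 ± 0.22 for Palld, -1.28 ± 0.11 for Enah and 0.77 ± 0.08 for Pdlim1. The part of structural RNA in the difference was not tested.

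The ILC2-like cells were divided into 7 subclusters, again without the 7 genes, and the levels in them are CPM without TMM scaling. Enah varied from 21.2 CPM (mean of litters) in the Cd7 and Tcf7 subcluster to 131 CPM in the Pla2g7 subcluster, which was also led by the mast cell genes Hdc and Gata1, with 120 CPM in the Ctla2a and Calca subcluster and 27.0 CPM in the mitotic Ube2c subcluster. In the Ctla2a subcluster (516 cells) it was 75.1 and 80.1 CPM in DEX litters and 168 and 156 CPM in PBS litters. In the Ung and Mcm2 subcluster of DNA replication (410 cells) it was 23.8 and 26.3 against 79.3 and 77.9 CPM. Both DEX litters lay below both PBS litters in 5 of the 7 subclusters. In the Cd7 and Tcf7 subcluster (344 cells) they overlapped, at 16.5 and 22.7 against 18.3 and 27.3 CPM.

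Palld was higher in both DEX litters in 5 of the 7 subclusters. In the Pla2g7 subcluster this rested on 6, 2, 1 and 0 UMIs in DEX-1, DEX-2, PBS-1 and PBS-2. The Ung and Mcm2 subcluster held 11, 5, 5 and 8 Palld UMIs in that order, with overlapping 95% counting intervals. In the Ctla2a subcluster Palld was 38.7 and 64.9 CPM in DEX-1 and DEX-2 and 8.15 and 7.21 CPM in PBS-1 and PBS-2. In the Il5 subcluster (172 cells), where Il5 encodes a type 2 cytokine, DEX-1 reached 64.1 CPM while DEX-2 at 15.8 CPM fell between PBS-1 at 21.9 and PBS-2 at 3.41 CPM. Pdlim1 was higher in both DEX litters in 6 of the 7, and its level was highest in the Il5 subcluster, at 374 and 330 CPM against 203 and 181 CPM. The exception was the 20-cell subcluster, with 18 Pdlim1 UMIs in all.

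Pard3 set the subclusters apart more than the litters. It averaged 180 CPM in the Ctla2a and 176 CPM in the Pla2g7 subcluster, and 40.3 and 44.3 CPM in the mitotic and the replicating subclusters. Both DEX litters were lower in 2 of 7 subclusters and the litters overlapped in the others. Evl and Vasp were more even, at 50.9 to 138 CPM and 132 to 198 CPM. These subclusters were drawn on the same cells, so their levels were not tested against each other, and their sizes were not compared between groups. They are parts of the same litters in the contrast that chose the genes, so the counts of subclusters are a description.

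**Figure D2:**
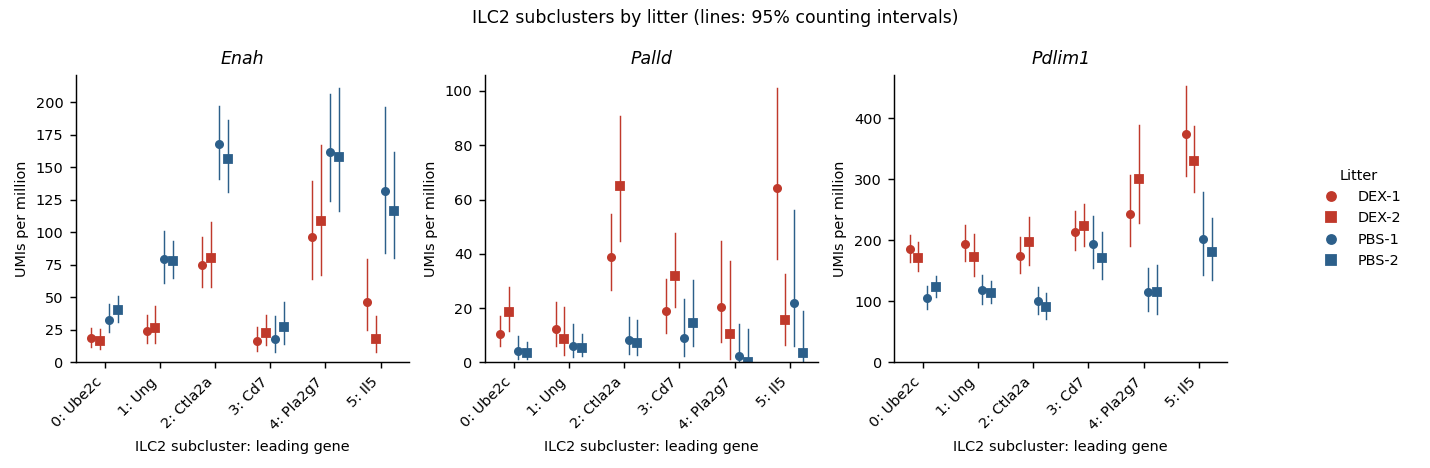
CPM (y axis) of Enah, Palld and Pdlim1 in the 6 larger ILC2 subclusters (x axis, with the first leading gene), 1 point per litter with 95% Poisson counting intervals. Enah of the DEX litters lies below that of the PBS litters except in the Cd7 subcluster, and Pdlim1 of the DEX litters lies above throughout.

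Cycling was not used in choosing the genes, and it separated ILC2-like cells along several of them. A cell was taken as cycling with UMIs of at least 3 of 15 cell cycle markers after thinning to 2000 UMIs, which held for 468 of 2033 cells, while 215 cells lay at 2 or 3 markers and 19 shallower cells were left out. Within litters, 21.0 to 25.6% of cells were cycling. Enah, Vasp, Palld and Pard3 were lower and Tubb2a was higher in cycling cells in each of the 4 litters.

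Pard3 fell the most. It measured 29.0, 44.8, 36.5 and 44.5 CPM in cycling cells of DEX-1, DEX-2, PBS-1 and PBS-2, and 90.9, 97.1, 133.8 and 101.2 CPM in cells not cycling. No cycling value reached a value of the other state, and the log2 fold change was -1.44 ± 0.11 (edgeR adjusted p = 3.08e-09, litter as a block). Enah measured 20.1, 23.2, 37.2 and 52.9 CPM in cycling cells and 45.4, 38.9, 114.9 and 97.6 CPM in the others, a log2 fold change of -1.13 ± 0.13 (edgeR adjusted p = 4.67e-07). Both PBS litters lay above both DEX litters in either state. Vasp fell from 188 ± 15.7 to 138 ± 17.1 CPM (mean ± SD, n = 4), by 0.44 ± 0.07 on the log2 scale (edgeR adjusted p = 4.8e-05).

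Palld measured 11.2, 20.1, 6.44 and 4.45 CPM in cycling cells and 28.6, 28.7, 7.48 and 6.08 CPM in the others, in the same order of litters. The DEX litters carried most of its fall of 0.76 ± 0.22 on the log2 scale (edgeR adjusted p = 0.00978). Without DEX-1 the log2 fold change was -0.44 and Palld was no longer called, and DESeq2 did not call it. Tubb2a measured 22.3, 29.4, 20.7 and 13.4 CPM in cycling cells and 16.2, 17.2, 7.87 and 10.6 CPM in the others, a rise of 0.70 ± 0.19 (edgeR adjusted p = 0.00694) that DESeq2 did not call either. Pdlim1 (-0.11 ± 0.08) and Evl (-0.18 ± 0.08) were not called.

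**Figure D3:**
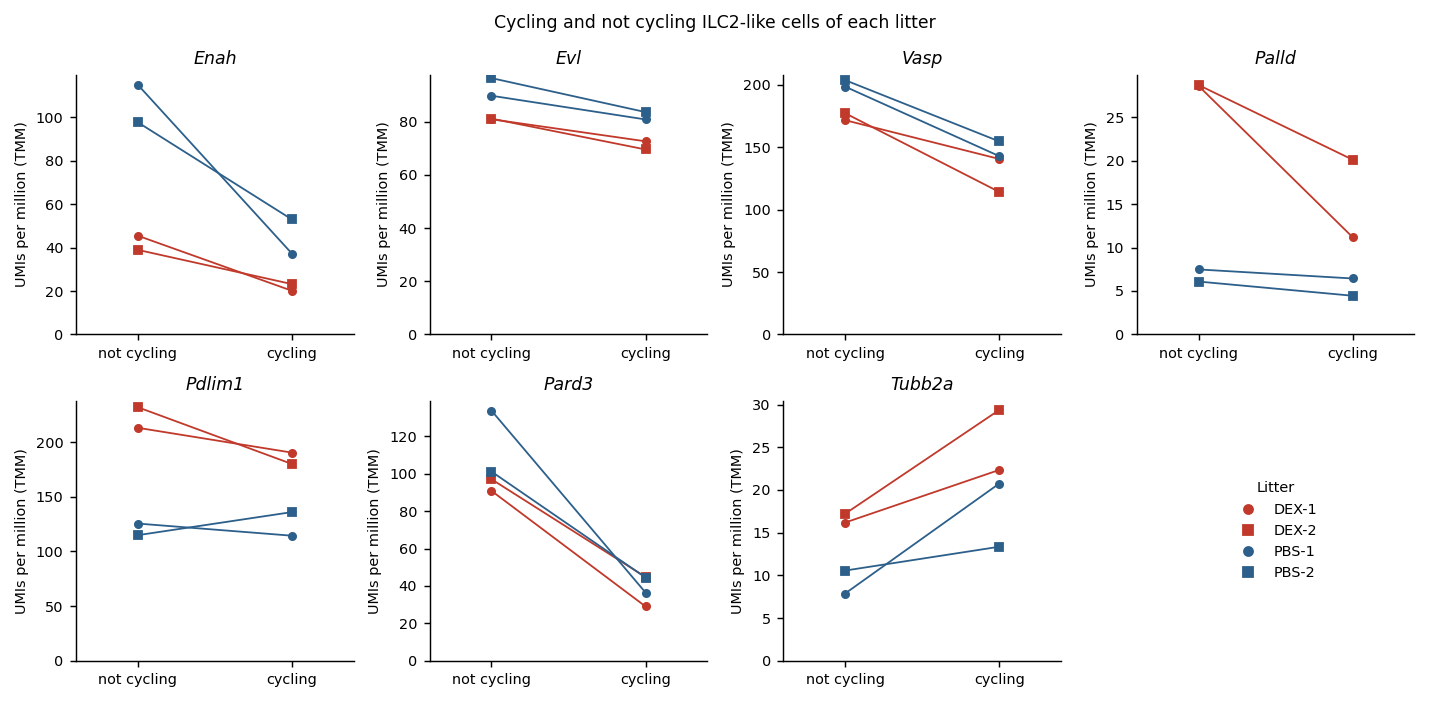
CPM after TMM scaling (y axis) of each gene in cells not cycling and cycling (x axis), with a line for each of the 4 litters. Enah, Vasp, Palld and Pard3 slope down in every litter and Tubb2a slopes up in every litter.

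Of the 7 genes, 5 were called between these states, against 37.6% of the 9463 genes tested. With 4 genes lower, where 17.6% of genes were, and 1 higher, where 20.0% were, calls are common here. Cycling cells were deeper, at 14066 to 14230 UMIs per cell against 6594 to 7486, and their part in the comparison was not tested beyond thinning. With cells thinned to 2000 UMIs, Palld and Tubb2a fell under the filter, and Enah, Vasp and Pard3 were still called. A change within cells and a different mix of ILC2 states cannot be told apart, since the Ctla2a subcluster, with Enah and Pard3 among its leading genes, showed a mean share of 4.7% for the cell cycle markers against 78.6% in the mitotic one.

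Outside ILC2s the same contrast of litters was tested in cells that had no part in the choice. The litters and the free RNA are the same, so these are not further animals. In basophil or mast-like cells, with 4589216 to 5703080 UMIs per litter over 650 to 765 cells, none of the 7 genes was called and none of 10882 genes was (0%). At an unadjusted p under 0.05, 418 genes and 2 of the 7, Palld and Tubb2a, stood out. DESeq2 called 6 genes and limma-voom 0, with none of the 7 among them. With a litter left out, 1 to 18 genes were called, the most without DEX-2, and again none of the 7. The litters did not overlap for 3 of the 7 genes, Palld, Pdlim1 and Tubb2a, and for 30.3% of tested genes.

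Tubb2a was 197.2 (DEX-1), 187.8 (DEX-2), 326.6 (PBS-1) and 268.0 CPM (PBS-2). Both DEX litters were lower, at a log2 fold change of -0.63 ± 0.13 (edgeR adjusted p = 1), the opposite direction to ILC2-like cells. The difference between the 2 classes was not tested. It was lower in both DEX litters in the Mrgprb2 (239 and 278 against 511 and 331 CPM), Tpsab1 and Tnfrsf23 clusters (the last 164 and 146 against 267 and 226 CPM). In the basophil-like cluster it was 62.7 and 39.4 against 50.1 and 55.7 CPM, and the litters overlapped. Tubb2b was also lower in both DEX litters of the class, at 41.4 and 26.3 CPM against 46.9 and 45.6 CPM.

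Palld was 10.8 (DEX-1), 5.82 (DEX-2), 3.23 (PBS-1) and 3.27 CPM (PBS-2), on only 50, 33, 15 and 15 UMIs. Both DEX litters were higher, as in ILC2-like cells, at a log2 fold change of 1.33 ± 0.39 (edgeR adjusted p = 1). Without DEX-1 it was 0.84 ± 0.44, and without the basophil-like cluster 1.65 ± 0.39. By cluster, Palld was higher in both DEX litters in the Tnfrsf23 cluster (28.3 and 17.5 against 4.65 and 5.72 CPM) and the Tpsab1 cluster (11 and 5.30 against 3.55 and 2.96 CPM). These rest on 25, 14, 3 and 4 UMIs and on 23, 13, 6 and 6 UMIs in DEX-1, DEX-2, PBS-1 and PBS-2. In the Mrgprb2 cluster the litters overlapped (1.16 and 2.86 against 0.91 and 2.39 CPM, on 1, 3, 1 and 3 UMIs). In the basophil-like cluster both DEX litters were lower (1.21 and 2.15 against 4.17 and 3.27 CPM). That order rests on only 1, 3, 5 and 2 UMIs, with overlapping 95% counting intervals, so no direction is read from it. The same share of mesenchymal-like Palld as of mesenchymal markers comes to 0.616 to 0.865 CPM in this class, where these markers summed to 18.0 and 16.3 against 17.9 and 11.1 CPM and Dcn had no UMI.

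Pdlim1 was 28.7 and 22.2 CPM in DEX litters and 19.8 and 19.2 CPM in PBS litters of the class (log2 fold change 0.38 ± 0.18). Enah was 58.3 and 43.8 against 55.3 and 63.2 CPM, with DEX-1 between the PBS litters, and its log2 fold change was -0.22 ± 0.17. Vasp (0.14 ± 0.17) and Evl (0.06 ± 0.30) overlapped between litters, and Pard3 had 8 to 20 UMIs per litter. Without the basophil-like cluster the log2 fold changes were 0.29 ± 0.12 for Vasp and -0.46 ± 0.45 for Evl.

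In epithelial-like cells, none of the 7 genes was called, with 0.0274% of 10945 genes called. The sums held 2032555 to 3007444 UMIs per litter. Enah was 29.0 and 25.2 CPM in DEX litters and 33.2 and 41.9 CPM in PBS litters, a log2 fold change of -0.48 ± 0.19 (edgeR adjusted p = 0.801). Pdlim1 was 51.4 and 51.5 against 37.0 and 41.5 CPM, at 0.39 ± 0.15 (edgeR adjusted p = 0.801). Pard3 was at -0.20 ± 0.14, Vasp at 0.23 ± 0.14 and Palld at -0.34 ± 0.44, the last 2 opposite in sign to ILC2-like cells. Evl was at -0.12 ± 0.21 and Tubb2a at 0.06 ± 0.14. The litters of Palld, Evl and Tubb2a overlapped. How often all tested genes share a sign between the 2 classes was not counted, so signs are not read further. With a ratio rule for hashtags Enah was at -0.09 ± 0.17. Litters did not overlap for 4 of 7 genes (Enah, Vasp, Pdlim1 and Pard3) and for 36.4% of tested genes. At an unadjusted p under 0.05 there were 667 genes, Enah and Pdlim1 among them. DESeq2 called 5 genes and limma-voom 2, with none of the 7. With a litter left out, 0 to 37 genes were called, the most without DEX-1, and none of the 7.

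In endothelial-like cells, 0 of 7 and 0 of 8981 genes were called (0%), and in mesenchymal-like cells 0 of 7 and 0 of 7570 (0%), with none by DESeq2 or limma-voom. At an unadjusted p under 0.05 there were 298 genes and none of the 7 in endothelial-like cells, and 345 genes with 1 of the 7, Pard3, in mesenchymal-like cells. Litters did not overlap for 1 of 7 (Vasp) beside 32.0% of tested genes in endothelial-like cells, and for 2 of 7 (Vasp and Pard3) beside 33.0% in mesenchymal-like cells. In endothelial-like cells Palld was 18.2 and 26.9 CPM in DEX litters and 26.0 and 44.5 CPM in PBS litters. The litters overlapped, and the log2 fold change was -0.64 ± 0.38, opposite in sign to that in ILC2-like cells. Palld, with its highest level in mesenchymal-like cells, was 258.7 (DEX-1), 260.1 (DEX-2), 299.6 (PBS-1) and 221.2 CPM (PBS-2) there. The DEX litters lay between the PBS litters, at a log2 fold change of -0.01 ± 0.21. Pard3 was 33.4 and 28.3 CPM in DEX litters and 44.2 and 80.2 CPM in PBS litters, at -0.97 ± 0.36 on 17 to 33 UMIs per litter. This class held 432016 to 705031 UMIs per litter, and the SEs of the 7 genes ran from 0.21 to 0.38. With a litter left out, up to 116 genes were called in endothelial-like cells (without PBS-1) and up to 70 in mesenchymal-like cells (without PBS-1), none of the 7.

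**Figure D4:**
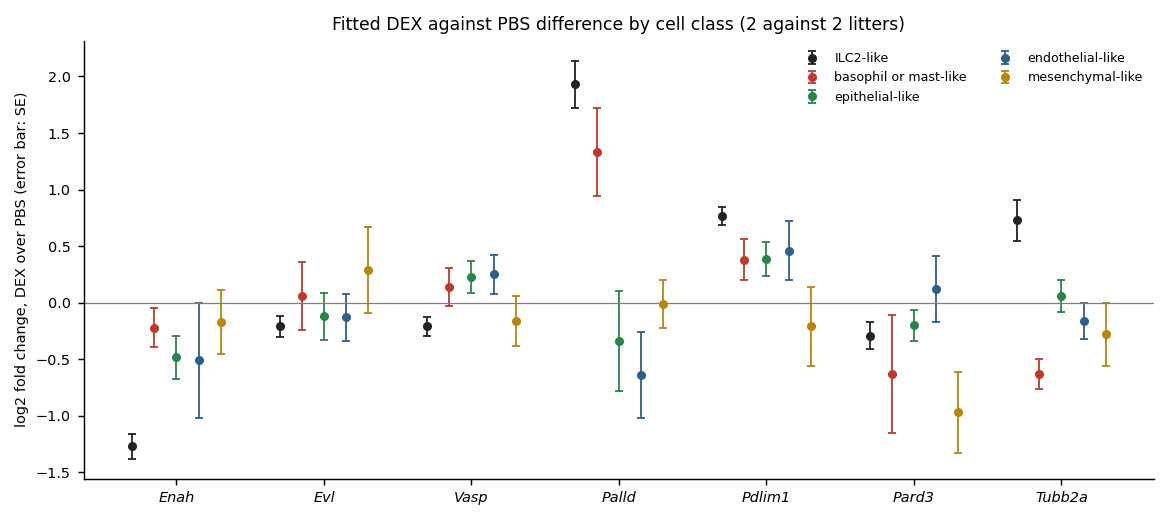
Fitted log2 fold change of DEX over PBS (y axis) with its SE for each gene in 5 cell classes, 2 against 2 litters. Palld stands at 1.93 in ILC2-like, 1.33 in basophil or mast-like, -0.01 in mesenchymal-like, -0.34 in epithelial-like and -0.64 in endothelial-like cells. Tubb2a stands at 0.73 in ILC2-like and -0.63 in basophil or mast-like cells.

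Across cell classes each gene kept a profile of its own. These levels are means over the 4 litters with TMM scaling across classes, and they are descriptions, since the classes were drawn on the same cells. Palld was 231 ± 27.7 CPM in mesenchymal-like cells (SD, n = 4), 25.3 ± 9.49 in endothelial-like and 15.1 ± 10.3 in ILC2-like cells. No litter of another class came near its lowest mesenchymal-like litter of 197.6 CPM. Endothelial-like and ILC2-like cells overlapped over litters, as did every lower neighbour.

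Pard3 was highest in ILC2-like cells at 82.2 ± 13.5 CPM, followed by epithelial-like cells at 70.5 ± 7.19, and the 2 classes overlapped over litters. It was nearly missing from basophil or mast-like cells (3.14 ± 1.36 CPM) and B-like cells (2.21 ± 4.42 CPM). A Pard3 UMI was in 41.1% of ILC2-like, 59.7% of epithelial-like, 1.74% of basophil or mast-like and 0.503% of B-like cells, and in 17.9, 14.5, 0.475 and 0% after thinning. With 0 of 185 thinned B-like cells, a share of up to 1.62% is allowed. Epithelial-like cells were deeper, with a median of 17526 UMIs against 7236 in ILC2-like cells. The share in ILC2-like cells lay above that in B-like cells, which takes in free RNA.

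Of the named classes, Pdlim1 was highest in ILC2-like cells at 166 ± 50.2 CPM, and no litter of endothelial-like cells (83.1 ± 21.9 CPM) reached the lowest ILC2-like litter. It was lowest in basophil or mast-like cells, at 25.4 ± 4.76 CPM. An unnamed cluster led by Gzmb and Scin, with basophil or mast markers, lay near the ILC2-like level. There Pdlim1 was 189, 181, 159 and 152 CPM in DEX-1, DEX-2, PBS-1 and PBS-2, without TMM scaling. Vasp was 171 ± 14.9 CPM in ILC2-like and 149 ± 21.9 CPM in basophil or mast-like cells, which overlapped over litters, and lowest in epithelial-like cells at 79.5 ± 8.95 CPM. The basophil or mast-like class was mixed, in CPM without TMM scaling as means of litters. Vasp was 286 CPM in its basophil-like cluster and 57.1, 102 and 110 CPM in the Mrgprb2, Tpsab1 and Tnfrsf23 clusters. Evl was 103 ± 21.9 CPM in B-like and 83.8 ± 7.26 CPM in ILC2-like cells, which overlapped, and 16.4 ± 4.18 CPM in basophil or mast-like cells, below every litter of any other class. Evl was likewise split within the basophil or mast-like class. It was 57.5 CPM in the basophil-like cluster and 1.81, 2.79 and 7.28 CPM in the others, in the same order.

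Enah was highest in mesenchymal-like cells at 82.1 ± 16.2 CPM, followed by basophil or mast-like (62.3 ± 9.55) and ILC2-like cells (59.7 ± 29.0), where the SD holds the gap between DEX and PBS litters. All of these overlapped over litters, and the last 2 changed places without TMM scaling. By cluster, without TMM scaling, Enah was 13.3 CPM in the basophil-like cluster. It was 51.2, 66.7 and 83.6 CPM in the Mrgprb2, Tpsab1 and Tnfrsf23 clusters (means of litters). Enah was lowest in B-like cells at 3.11 ± 6.22 CPM. Tubb2a was 306.9 ± 36.7 CPM in endothelial-like and 276 ± 74.2 CPM in basophil or mast-like cells, which overlapped, and 16.1 ± 4.74 CPM in ILC2-like cells, the lowest class. Tubb2b, at 99.2 ± 18.0 CPM in endothelial-like, 45.2 ± 10.8 in basophil or mast-like and 2.09 ± 1.29 in ILC2-like cells, kept the same order of these 3 classes.

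**Figure D5:**
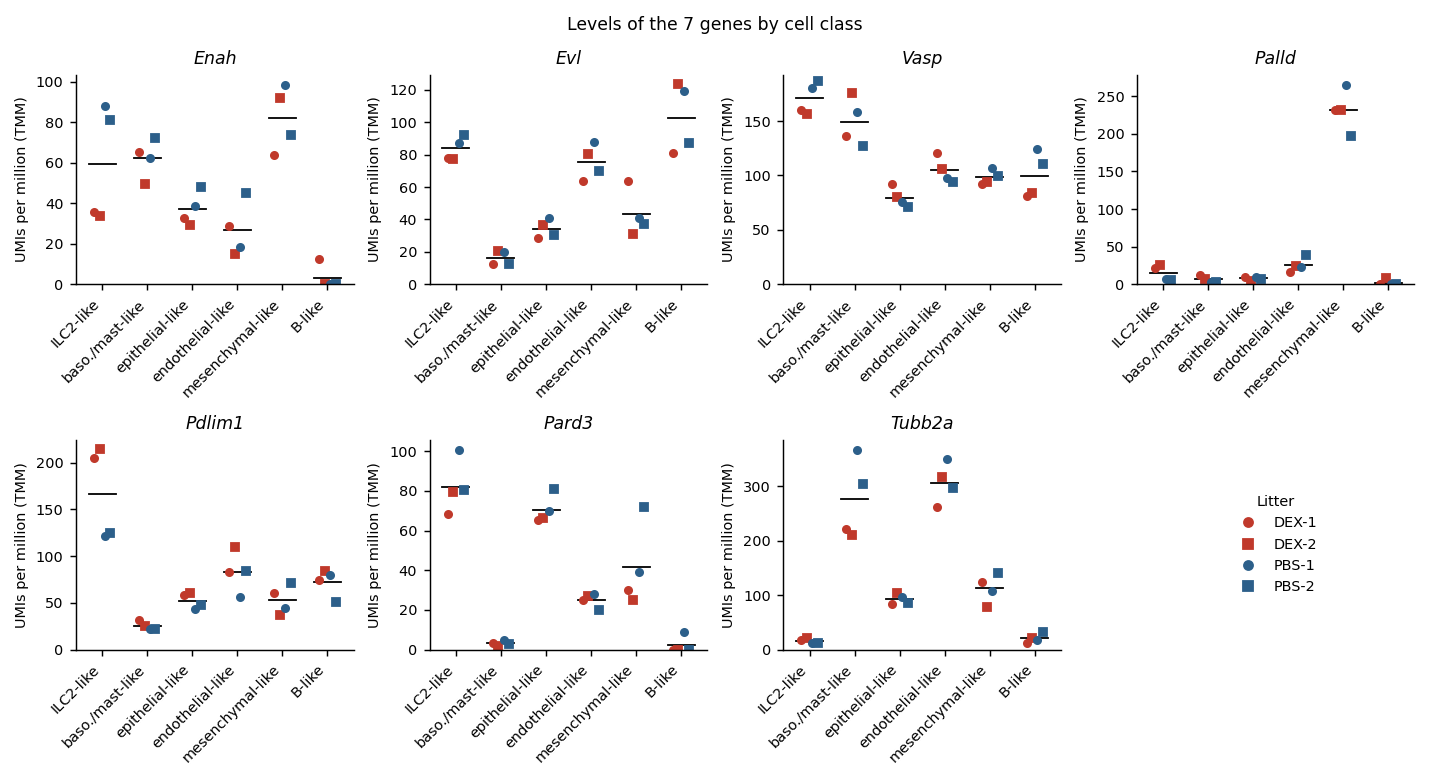
CPM after TMM scaling across classes (y axis) of the 7 genes in 6 cell classes (x axis), 1 point per litter and a line at the mean of 4 litters. Palld stands out in mesenchymal-like cells at 231 CPM, Tubb2a in endothelial-like and basophil or mast-like cells, and Pard3 in ILC2-like and epithelial-like cells.

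Genes with the most similar profile were sought among 9120 others over the 24 sums of class and litter, which share a library and differ in depth. For Enah these were Decr2 (Pearson r = 0.935), the formin Diaph3 (0.920) and Tbc1d2b (0.916), and for Palld Adarb1 (0.911), Ppp1r14a (0.909), an inhibitor of myosin phosphatase, and Mdk (0.905). For Pdlim1 they were Pxdc1 (0.889), Atp5a1 (0.848) and Shisa5 (0.831), and for Pard3 Serpinb6a (0.933), Tusc3 (0.930) and Ldhb (0.919). Evl was closest to Map3k8 (0.925), D1Ertd622e (0.911) and Arid5a (0.901), Vasp to Pfkp (0.912), Pak2 (0.898) and Srpk1 (0.897), and Tubb2a to Hapln1 (0.945), Xbp1 (0.941) and Dlgap4 (0.940).

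Of 132 other genes of the actin, tubulin and polarity machinery, in 8 lists, 111 were tested in ILC2-like cells between DEX and PBS, and 3 were called, all lower in DEX litters, or 2.70% beside 2.28% of all genes. Their median log2 fold change was -0.01, and that of all tested genes was 0.00. The formin gene Fmnl3 was 8.27 and 6.70 CPM in DEX litters and 17.5 and 13.8 CPM in PBS litters, at -1.03 ± 0.23 (edgeR adjusted p = 0.0315). Capg, which caps filament ends, was 161.4 and 131.5 against 226.9 and 201.4 CPM, at -0.54 ± 0.10 (edgeR adjusted p = 0.0112). Tmsb4x, encoding the actin monomer binding thymosin beta 4, was 8291 and 8578 against 10487 and 9910 CPM, at -0.27 ± 0.06 (edgeR adjusted p = 0.0415). Without DEX-1 or without DEX-2, 1 list gene was called, and without PBS-2 there were 5.

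By list, 1 of 8 tested formins and 2 of 21 genes of filament turnover and capping were called. None of 11 partners of Ena/VASP proteins, 8 PDZ-LIM, palladin family and alpha-actinin genes, 23 genes of the Arp2/3 complex, which branches filaments, 13 actins and crosslinkers, 11 tubulins and stathmin or 16 polarity genes was, while 14 of these 82 had an unadjusted p under 0.05 in edgeR and DESeq2 and limma-voom called 0 of them. Over all lists 20 of 111 genes had an unadjusted p under 0.05, beside 1305 of all 10643 genes tested. The Ena/VASP partner Pfn1 (profilin) was 3267 and 3228 CPM in DEX litters and 3689 and 3569 CPM in PBS litters, at -0.16 ± 0.06 (edgeR adjusted p = 0.296). Zyx (zyxin), which brings Ena/VASP proteins to adhesions, was 284.6 and 251.8 against 271.4 and 262.5 CPM, at 0.01 ± 0.08. Actb (beta-actin, -0.10 ± 0.06) and the filament severing gene Cfl1 (cofilin, 0.06 ± 0.07) were not called. In basophil or mast-like cells 0 of 108 tested list genes were called by edgeR, DESeq2 or limma-voom, and 4 had an unadjusted p under 0.05 in edgeR. Between cycling and other ILC2-like cells 31 of 101 list genes were higher, where 20.0% of all genes were, and 17 were lower, where 17.6% of all genes were, and all 8 tested tubulin and stathmin genes were higher, at a median of 2.81 on the log2 scale.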

How the data were processed

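Cells were sorted from fetal lungs of 4 hashtagged litters and read as 1 library of 5′ gene expression and hashtag tags. The authors deposited raw UMI counts per gene and barcode, aligned to mm10 with Cell Ranger 7 per the labels, and no fold changes or other normalized values were used. Whether intronic reads were counted is not given in the sources used here. Hashtags, whose litters the study's reagent list names, were called with HTODemux (Seurat 5.3.0). Of 10648 barcodes, 10409 had at least 200 genes and at most 5% mitochondrial UMIs, and of these 7268 carried 1 tag, 736 were doublets between litters and 2405 had no tag. Doublets within a litter were not removed.

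Counts were clustered (scanpy 1.11.5, 2000 variable genes without the 7 members and the listed genes, Leiden resolution 0.5). A cluster was named from marker shares, with limits set in an earlier analysis after clusters had been seen. Raw counts were summed per class and litter and tested with edgeR 4.0.16 (TMM, filterByExpr, quasi-likelihood test, Benjamini-Hochberg adjustment over all tested genes, threshold 0.05) between 2 DEX and 2 PBS litters, and between cycling and other ILC2-like cells with litter as a block. An exact permutation test of 2 against 2 litters cannot go below 0.333. Scripts were tested on simulated data. Alternatives were DESeq2 1.42.0, limma-voom (limma 3.58.1), other filters, hashtag and mitochondrial rules, thinned cells, another resolution, left-out litters and the litter number as a block. Intervals and limits cover counting error only.

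The members and lists were chosen with earlier results of these data known. Named were all members, each list gene called in ILC2-like cells, Actb, Pfn1, Zyx, Cfl1 and Tubb2b, and for each member the 3 genes with the highest Pearson correlation of log2(CPM + 1).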

Additional observations from a re-analysis of the deposited data

Results flagged for a closer look

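Tubb2a differed in direction between classes. Its log2 fold change of DEX over PBS was -0.63 in basophil or mast-like cells, with both DEX litters lower, and 0.73 in ILC2-like cells, with both DEX litters higher, and the difference between the classes was not tested. Vasp was higher in both DEX litters of epithelial-like (0.23) and endothelial-like cells (0.25) and lower in both DEX litters of ILC2-like cells (-0.21), also without a test of the difference. Palld, at 1.93 in ILC2-like cells, was -0.64 in endothelial-like and -0.34 in epithelial-like cells, where the litters overlapped. This difference was not tested either. An unnamed cluster of 461 cells was led by Gzmb and Scin with basophil or mast markers. Its Palld level was 4.6 CPM in DEX-1, 6.23 CPM in DEX-2, 1.30 CPM in PBS-1 and 1.12 CPM in PBS-2. These rest on only 7, 18, 2 and 2 UMIs in that order, with overlapping 95% counting intervals. Pdlim1 was 189 and 181 CPM in DEX litters of that cluster against 159 and 152 CPM in PBS litters. This cluster entered no comparison of the report, and these differences were not tested.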

How the results depend on the processing

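Enah, Palld and Pdlim1 were selected on the contrast in ILC2-like cells, so calls under other settings are no independent support. They were called in these cells under every alternative run with all 4 litters. The number of all genes called there was 243, and became 111 with DESeq2, 111 with thinned cells, 158 in cells not cycling, 511 with no filter on low genes, and between 164 and 440 with a litter left out. The 3 list genes called became 6 with no filter, 5 with a ratio rule for hashtags, 0 with thinned cells and between 1 and 5 with a litter left out. Of the 5 members called between cycling and other cells, 3 (Enah, Vasp, Pard3) were called with DESeq2, with thinned cells, and with no replicate block. The cause of these shifts was not tested. Pdlim1 was also called without PBS-2, at -0.22. None of the 7 was called in the other 4 classes under any alternative run, but some were under the filter and not tested. With thinned cells, 5 of the 7 were tested in basophil or mast-like and 3 in epithelial-like cells. In endothelial-like cells 4 were tested, and in mesenchymal-like cells 2. Whether same-numbered litters were handled as pairs is not given in the sources used here. Deviations of same-numbered litters correlated at 0.0822 in ILC2-like, -0.126 in basophil or mast-like and -0.165 in epithelial-like cells. These correlations run over genes and not over litters, so they cannot settle it. With the replicate block, 644 genes, 12 list genes and, of the 7, also Tubb2a were called in ILC2-like cells. Crossed numbers, added after seeing the data, gave 16 genes in basophil or mast-like and 198 in epithelial-like cells. The 2 litters per group, and 8 to 50 UMIs per litter for Palld and Pard3 in basophil or mast-like cells, limit what could be detected.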

Other observations

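The members also differed between clusters of a class, as values without a test. In the ciliated cluster of epithelial-like cells (44 cells, led by Foxj1) Enah was 97.0, 131, 119 and 144 CPM in DEX-1, DEX-2, PBS-1 and PBS-2, against 20.5, 9.60, 15.6 and 14.9 CPM in the largest epithelial-like cluster, led by Dlk1 and Lyz1. In an unnamed cluster of 28 cells, led by Tox and with Themis, with a median of 2417 UMIs, Pard3 was 1351, 811, 1539 and 1800 CPM. In the unnamed cluster led by Gzmb and Scin, Tubb2a was 145 and 170 CPM in DEX litters and 268 and 265 CPM in PBS litters, the same direction as in basophil or mast-like cells.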
